A study of Mus musculus with 6 samples.

Results

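The mineralization genes *Phex*, *Smpd3*, *Enpp1*, *Alpl*, *Ank*, *Mgp*, *Fgf23*, *Dmp1* and *Runx2* were followed in 6 stromal populations of the mouse omentum, and all 9 were found among 23352 gene symbols. They are promoters and inhibitors of mineral deposition. They were chosen by a list drawn up with earlier results known, because the FPKM values of *Phex* and *Smpd3* were highest in P1, so the levels of these genes in P1 are a description and not a finding. FPKM divides the fragments of a gene by its exon length and by the mapped reads of the library, and on this scale levels of genes of different length can be compared.

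All cells came from WT C57BL/6 mice, and neither a treatment nor an age was given. The 6 populations were sorted as CD45- cells by CD140a (PDGFRα), CD105 (endoglin) and the activity of aldehyde dehydrogenase (ALDH), read from a fluorescent substrate. The CD140a+ CD105+ cells were divided into P1 (ALDH high), P2 (ALDH intermediate) and P3 (ALDH low). The CD140a+ CD105- cells gave P4 (ALDH intermediate) and P5 (ALDH low), and P6 held ALDH-positive cells with low CD140a. Each population had 1 library, made from RNA of sorted cells, and the number of mice behind a library is not stated in the sources used here. There were therefore no replicates, no p-values were computed, and the spread between mice is unknown. Estimated depth was 53.15 to 61.6 M reads in P1 to P5 and 37.1 M in P6. Intervals given with ratios are 95% exact binomial (Clopper-Pearson) intervals based on this estimate, so counting error is all that they cover.

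Mineral forms in bone matrix as crystals of calcium and phosphate, and pyrophosphate blocks their growth. ENPP1 makes pyrophosphate outside the cell, ANK moves it out of the cell, and tissue-nonspecific alkaline phosphatase, the product of *Alpl*, breaks it down. FGF23 is a hormone, known best from osteocytes, that makes the kidney excrete phosphate, and loss of PHEX or DMP1 raises it. In soft tissue, matrix Gla protein (*Mgp*) keeps arteries and cartilage free of mineral.

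The genes fell into different patterns over the 6 populations. *Phex* and *Smpd3* were highest in P1 and second highest in P4. *Fgf23*, *Ank* and *Enpp1* were highest in P2 or P3. *Alpl* stepped down from P1 to P5, whereas *Mgp* was lowest in P1 and highest in P6. *Dmp1* and *Runx2*, the genes most tied to bone cells, were below 0.2 FPKM in every population.

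Of the 9 genes, 6 reached 1 FPKM in at least 1 population. Of these 6 genes, 3 were highest in P1, namely *Phex*, *Smpd3* and *Alpl*. Over all 12904 genes that reached 1 FPKM, 14.2% were highest in P1. Since the list was built around P1, this share is given without reading anything from it.

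The promoters of *Phex*, *Fgf23* and *Alpl* are shown because the levels of these 3 genes ordered the populations in 3 different ways, and because *Alpl* was the only gene of at least 1 FPKM whose window held a searched motif. Each window runs from 250 bases before to 50 bases after an annotated start and was taken from RefSeq, build GRCm38.p6, the assembly of mm10. *Phex* lies on the minus strand (chrX:157415237-157415536), *Fgf23* on the plus strand (chr6:127072652-127072951) and *Alpl*, at the downstream of its 2 starts, on the minus strand (chr4:137766426-137766725). Capitals mark matches, on either strand, to the letters TGTGGT of a RUNX site, AGGTCA of a retinoid half-site and TATAAA of a TATA box.
Phex: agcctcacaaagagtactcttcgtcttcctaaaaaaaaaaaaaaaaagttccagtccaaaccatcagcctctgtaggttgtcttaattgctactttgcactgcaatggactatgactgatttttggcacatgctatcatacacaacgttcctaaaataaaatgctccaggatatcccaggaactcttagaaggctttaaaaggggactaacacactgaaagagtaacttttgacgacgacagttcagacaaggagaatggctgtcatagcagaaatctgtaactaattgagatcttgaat
Fgf23: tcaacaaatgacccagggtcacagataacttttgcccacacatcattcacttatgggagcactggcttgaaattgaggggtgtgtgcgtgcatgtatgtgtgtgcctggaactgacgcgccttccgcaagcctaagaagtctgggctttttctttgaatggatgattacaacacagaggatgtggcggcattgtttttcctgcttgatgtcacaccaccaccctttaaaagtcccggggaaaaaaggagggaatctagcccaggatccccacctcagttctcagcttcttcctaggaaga
Alpl: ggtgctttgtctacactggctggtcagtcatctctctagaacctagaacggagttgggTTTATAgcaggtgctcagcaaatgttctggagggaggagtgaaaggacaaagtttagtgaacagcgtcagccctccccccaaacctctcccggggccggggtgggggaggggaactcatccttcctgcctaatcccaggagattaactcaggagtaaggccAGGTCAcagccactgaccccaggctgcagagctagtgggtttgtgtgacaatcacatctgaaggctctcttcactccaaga

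The *Phex* and *Fgf23* windows held none of these letters. The printed *Alpl* window held AGGTCA from position -31, counted from the start, and TATAAA on the opposite strand from position -192. These matches did not overlap. The window at the upstream start of *Alpl* held no match. Promoters were found for 7 of the 9 genes, in 9 windows, and were not found for *Smpd3* and *Mgp*. TGTGGT or its reverse complement occurred in windows of *Enpp1*, *Dmp1* and *Runx2*, all below 1 FPKM in every population. The *Runx2* window also held AGGTCA, from position -89. Among 32851 promoters of this length, 16.8% held TGTGGT, 16.3% held AGGTCA and 13.6% held TATAAA. A match describes letters in a window, and its absence says nothing of a factor.

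*Phex* (chrX:157162075-157415312, minus strand, GRCm38) encodes a membrane peptidase of the M13 family whose loss causes X-linked hypophosphatemia. It had 18.4 FPKM in P1, 2.63 and 3.92 in P2 and P3, 5.71 and 0.680 in P4 and P5, and 0.192 in P6. P1 held 3.22 times the level of P4 (interval 3.06 to 3.39) and 96.0 times that of P6 (71.4 to 133). The order was P1, P4, P3, P2, P5 and P6, and no interval of the ratio between neighbours in this order included 1. *Phex* did not follow ALDH activity alone. Among CD105+ cells it was lower at intermediate than at low activity, with a ratio of P2 to P3 of 0.672 (0.619 to 0.730), and among CD105- cells it was higher at intermediate activity, with a ratio of P4 to P5 of 8.40 (7.37 to 9.62). It also had opposite directions for CD105, at 0.461 for P2 over P4 (0.427 to 0.497) and 5.76 for P3 over P5 (5.04 to 6.61). *Aldh1a2*, which makes retinoic acid and is one of the enzymes behind ALDH activity, had 469 FPKM in P1, 78.8 and 134 in P2 and P3, 285 and 145 in P4 and P5, and 209 in P6. Like *Phex*, it was lower in P2 than in P3 and higher in P4 than in P5. Unlike *Phex*, it was lower in P3 than in P5, and its lowest value was in P2 and not in P6.

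*Fgf23* (chr6:127072902-127081408, plus strand) had 3.93 FPKM in P1, 11.9 and 16.3 in P2 and P3, 1.90 and 2.61 in P4 and P5, and 0.0335 in P6. The 2 highest values were in the CD105+ populations with intermediate and low ALDH activity, and the value in P6 stood on about 2 estimated reads, so that the ratio of P3 to P6 was 487 with an interval from 135 to 4042. The ratio of CD105+ to CD105- cells was 6.24 at intermediate ALDH activity (P2 over P4, 5.32 to 7.32) and 6.26 at low activity (P3 over P5, 5.50 to 7.18). Intermediate over low activity gave 0.727 within CD105+ (0.674 to 0.785) and 0.730 within CD105- cells (0.602 to 0.889). *Fgf23* in P3 was 4.15 times its level in P1 (3.69 to 4.69), while *Phex* in P3 was 0.213 times its level in P1 (0.201 to 0.226). P3 had the most *Fgf23* and P1 the most *Phex*.

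*Dmp1*, which encodes an acidic matrix protein of bone and dentin, had 0.0219 FPKM in P1, 0.108 and 0.0772 in P2 and P3, and 0.0133 and 0.00632 in P4 and P5. It was listed at 0 in P6. These values rest on at most 17 estimated reads. In P6, 3 reads would correspond to 0.0315 FPKM, but a listed 0 can also be a failed estimate and sets no bound.

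**Figure D1:**
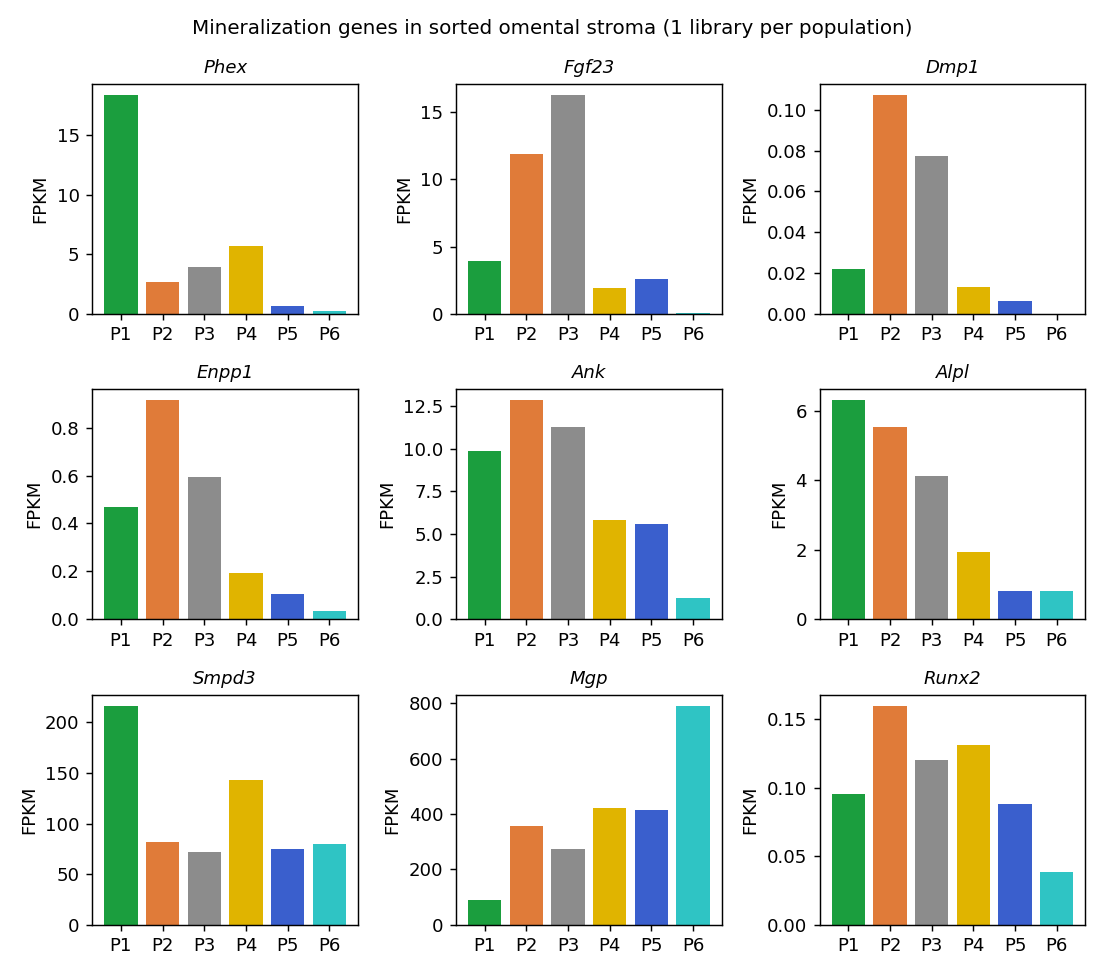
FPKM of the 9 mineralization genes in P1 to P6, each bar being 1 library and each panel having its own linear axis from 0. *Phex* and *Smpd3* stand highest in P1 (18.4 and 217 FPKM), *Fgf23* in P3 (16.3 FPKM) and *Mgp* in P6 (792 FPKM), and the panels of *Dmp1* and *Runx2* stay below 0.2 FPKM.

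Among the genes of pyrophosphate, *Ank* (chr15:27466677-27594909, plus strand) had 9.90 FPKM in P1, 12.9 and 11.3 in P2 and P3, 5.83 and 5.56 in P4 and P5, and 1.25 in P6. Every CD105+ population was above every CD105- population, and P4 and P5 did not differ beyond counting error (ratio 1.05, 0.964 to 1.14). The ratio of P2 to P4 was 2.21 (2.06 to 2.37) and that of P3 to P5 was 2.03 (1.89 to 2.19), the value just inside the limit of 2-fold used for calls.

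*Enpp1* had 0.470 FPKM in P1, 0.915 and 0.594 in P2 and P3, 0.192 and 0.107 in P4 and P5, and 0.0358 in P6. It followed the same division by CD105 as *Ank* at a much lower level, with a ratio of P2 to P4 of 4.77 (3.70 to 6.20). It did not reach 1 FPKM and was left out of the calls.

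*Alpl* (chr4:137741733-137796384, minus strand) had 6.31 FPKM in P1, 5.52 and 4.13 in P2 and P3, 1.93 and 0.810 in P4 and P5, and 0.805 in P6. Within CD105+ cells it stepped down with ALDH activity by little, 1.14 times from P1 to P2 (1.03 to 1.26) and 1.34 times from P2 to P3 (1.20 to 1.49). The step from P3 to P5, at low ALDH activity, was 5.10 times (4.17 to 6.28). P5 and P6 did not differ beyond counting error, with a ratio of 1.01 (0.745 to 1.38).

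*Smpd3* (chr8:106252548-106337988, minus strand) encodes neutral sphingomyelinase 2, a membrane enzyme that cleaves sphingomyelin and whose loss in mice leaves bone poorly mineralized. In P1 it was the most abundant of the 9 genes, and elsewhere only *Mgp* was higher. *Smpd3* had 217 FPKM in P1, 81.5 and 71.7 in P2 and P3, 143 and 75.2 in P4 and P5, and 79.9 in P6. P2, P3, P5 and P6 lay between 71.7 and 81.5 FPKM. P1 held 1.52 times the level of P4 (1.499 to 1.54) and 2.66 times that of P2 (2.62 to 2.70). The ratio of P4 to P5 was 1.90 (1.87 to 1.93), just outside the limit of 2-fold, and with division by *Gapdh* its log2 value was 1.03. P2 and P6 did not differ beyond counting error, with a ratio of 1.02 (0.998 to 1.04). At its 3′ end, 247 of 5232 annotated exon bases of *Smpd3* overlap *Prmt7* on the opposite strand (chr8:106252548-106252794, GENCODE M21), and no use of strand in counting is stated. *Prmt7* had 5.94 to 9.47 FPKM over the 6 libraries.

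*Mgp* (chr6:136872435-136875823, minus strand) had 88.2 FPKM in P1, 355 and 273 in P2 and P3, 423 and 415 in P4 and P5, and 792 in P6. P6 held 8.98 times the level of P1 (8.56 to 9.42), and P3, the next lowest, held 3.10 times the level of P1 (2.95 to 3.26). P4 and P5 did not differ beyond counting error (ratio 1.02, 0.992 to 1.05). P1 thus had the lowest level of this inhibitor, whereas *Ahsg*, another inhibitor of calcification, was highest in P1 (5.20 FPKM).

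*Runx2*, the transcription factor that directs cells to the osteoblast lineage, had 0.0954 FPKM in P1, 0.160 and 0.120 in P2 and P3, 0.131 and 0.0881 in P4 and P5, and 0.0386 in P6. From highest to lowest, the order was P2, P4, P3, P1, P5 and P6. From P2 down to P5, no neighbours in this order differed beyond counting error. Farther apart, P1 was below P2, with a ratio of 0.597 (0.377 to 0.930). P5 over P6 was 2.28 (1.07 to 5.39).

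For comparisons between populations, a gene was called when its ratio of FPKM + 0.1 was at least 2 and the higher population had at least 1 FPKM. In P1 over P2, which compares high with intermediate ALDH activity, 2 of the 6 genes tested were called higher, *Phex* and *Smpd3*, against 0.957% of all genes. These are the genes and the population the list was built on. In the other direction *Mgp* and *Fgf23* were called lower in P1, against 4.23% of all genes. The ratio of P1 to P2 was 0.248 for *Mgp* (0.236 to 0.261) and 0.331 for *Fgf23* (0.292 to 0.374). All 8 pancreatic acinar markers and the mural markers *Myh11* and *Acta2* were called lower in P1 than in P2. The fibroblast marker *Col3a1* was called higher, against a listed 0 in P2. The part of these markers in the calls of the 6 genes was not tested.

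ALDH activity was also compared at its lower levels. In P2 over P3, none of the 6 genes was called, where 1.09% of all genes were called higher and 2.56% lower. Markers differed here too, with all 8 pancreatic acinar markers and the leukocyte marker *Cd79a* called higher in P2. The mesothelial markers *Upk3b* and *Lrrn4*, the endothelial marker *Esam* and the mural markers *Myh11* and *Acta2* were called lower. *Col3a1*, listed at 0 in P2, was called lower as well. The part of these markers in the levels of the 6 genes was not tested. In P4 over P5, *Phex* and *Alpl* were called higher, against 3.93% of all genes, and none was called lower, against 1.44%. *Alpl* had a ratio of P4 to P5 of 2.38 (1.91 to 2.99). All 8 pancreatic acinar markers and the fibroblast markers *Dpt* and *Lum* were also called higher in P4 than in P5. So were the mesothelial marker *Msln*, the endothelial marker *Kdr* and the Schwann cell marker *S100b*. The part of these markers in the calls of *Phex* and *Alpl* was not tested.

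CD105 was compared at matched ALDH activity. In P2 over P4, *Alpl*, *Ank* and *Fgf23* were called higher in CD105+ cells, against 4.9% of all genes, and *Phex* was called lower, against 7.63%. In P3 over P5, *Phex*, *Alpl*, *Ank* and *Fgf23* were called higher in CD105+ cells, against 7.33% of all genes, and none was called lower, against 6.29%. *Alpl*, *Ank* and *Fgf23* were thus called higher in CD105+ cells in both comparisons. In P3 over P5, the call of *Ank* was lost with a pseudocount of 1, and those of *Alpl* and *Phex* at a minimum of 5 FPKM. *Phex* was called in opposite directions, and the call of lower *Phex* in P2 was lost with division by *Gapdh*, with quantile normalization and with a pseudocount of 1. All 8 acinar markers, 5 of 6 mesothelial markers, the mural markers *Myh11* and *Acta2* and the endothelial markers *Kdr* and *Esam* were called lower in CD105+ cells in both comparisons. The endothelial markers *Pecam1*, *Cdh5*, *Tie1* and *Cldn5* were below 1 FPKM and left out of the calls. Of these, *Pecam1*, *Cdh5* and *Tie1* had higher values in CD105+ cells in both comparisons, and *Cldn5* only in P2 over P4. Called higher in both were the fibroblast markers *Dpt* and *Lum*, the mural marker *Notch3* and the adipocyte marker *Plin1*. The part of these markers in the calls was not tested.

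**Figure D2:**
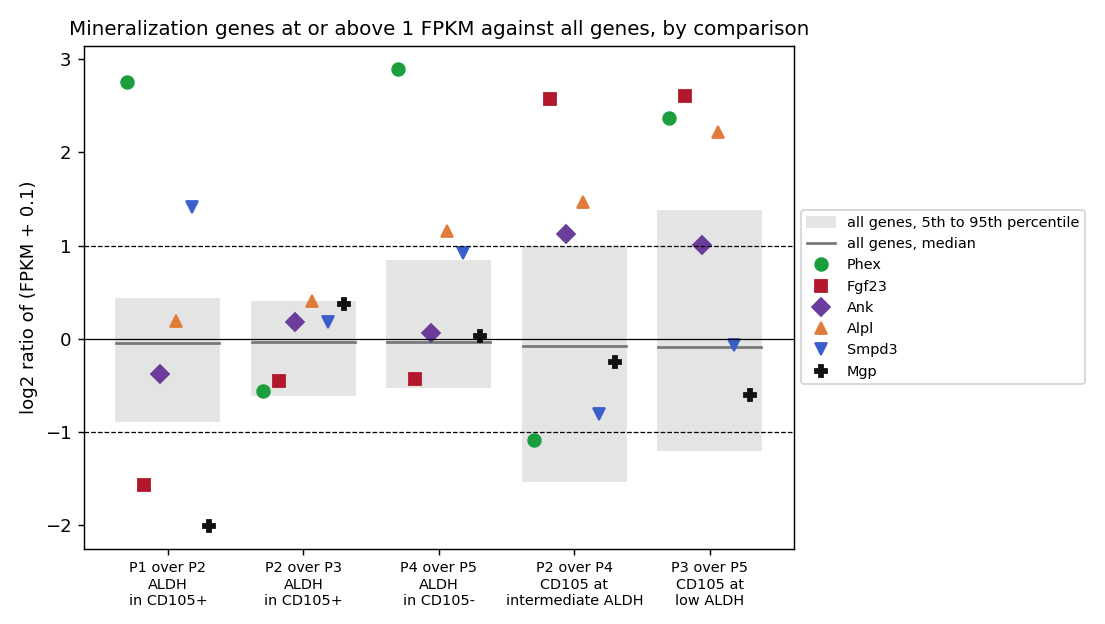
Log2 ratios of FPKM + 0.1 for the 6 genes that reached 1 FPKM, in 5 comparisons of 1 library with 1 library; grey boxes span the 5th to the 95th percentile of all genes with at least 1 FPKM in either library, grey lines their median, and dashed lines a 2-fold difference. *Phex* lies near 3 in P1 over P2 and in P4 over P5 but below 0 in P2 over P3 and P2 over P4, and *Fgf23* lies above 2 in both comparisons of CD105.

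P6 was compared with each of P1 to P5. *Ank* and *Fgf23* were called lower in P6 than in all 5 CD140a+ populations, against 3.36% of all genes. None was called higher than in all of them, against 6.25%. *Mgp* was 1.87 times higher in P6 than in P4 (1.82 to 1.92), the highest other population.

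Markers of other cells also differed between the populations, and their part in these results was not tested. *Eng*, the gene of CD105, had 42.6 to 52.4 FPKM in P1 to P3 and at most 0.728 in P4 to P6, and *Pdgfra*, the gene of CD140a, had 117 to 154 FPKM in P1 to P5 and 5.36 in P6. The sum of 6 mesothelial markers was 71.6 FPKM in P1, 874 and 716 in P4 and P5, and 2507 in P6. All 6 were highest in P6. All 8 pancreatic acinar markers were also highest in P6, with a sum of 1643 FPKM there and 1109 in P4. This sum was 208 and 21.6 FPKM in P2 and P3, 136 in P5 and 3.85 in P1. The sum of 5 adipocyte markers was 152 FPKM in P6 and at most 4.93 elsewhere. That of 6 endothelial markers was 111 FPKM in P6 and 1.51 to 18.5 elsewhere. Nearly all of this sum in P6 came from *Esam* (62.0 FPKM) and *Kdr* (46.9 FPKM). *Pecam1*, *Cdh5*, *Cldn5* and *Tie1* stayed below 1 FPKM in every population. In these bulk libraries, fewer cells that express a gene and less RNA per cell cannot be told apart.

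None of 6 osteoblast markers reached 1 FPKM in any population. *Ibsp* and *Sost* were listed at 0 in all 6 libraries, and *Sp7*, the osteoblast factor downstream of RUNX2, had at most 0.0316 FPKM. The highest of the 6 was *Phospho1*, a phosphatase of matrix vesicles, at 0.722 FPKM in P1, 0.275 and 0.231 in P2 and P3, 0.230 and 0.199 in P4 and P5, and 0.0949 in P6. None of 4 chondrocyte markers exceeded 0.0307 FPKM. In a wider list of 9 bone cell products, 2 did reach 1 FPKM. *Ifitm5*, a membrane protein known from osteoblasts, had 1.70 to 3.73 FPKM in the 6 populations. *Omd* (osteomodulin), a matrix proteoglycan, had 2.76 FPKM in P1, 4.72 and 3.16 in P2 and P3, 1.81 and 0.973 in P4 and P5, and 2.32 in P6, and it was called higher in CD105+ cells in P2 over P4 and in P3 over P5.

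Beyond the 9 genes, 54 genes from lists of mineralization partners were examined, and 34 of them reached 1 FPKM. Of these 34, 11 were highest in P6, 9 in P2, 8 in P1, 5 in P5, 1 in P3 and 0 in P4. Over all 12904 genes, 37.7% were highest in P6, 8.8% in P2, 14.2% in P1, 24.2% in P5, 8.75% in P3 and 6.33% in P4. In P1 over P2, none of 32 tested partners was called higher (0.957% of all genes) and 1, *Gas6*, was called lower (4.23%). In P2 over P3, 2 of 32 were called higher (1.09%), *Dlx3* and *Tnfrsf11b*, and none lower (2.56%). In P4 over P5, 7 of 33 were called higher (3.93%) and none lower (1.44%). For CD105, P2 over P4 had 3 of 32 called higher (4.9%) and none lower (7.63%), and P3 over P5 had 8 of 32 called higher (7.33%) and 1, *Sgms2*, lower (6.29%). P6 had 4 of 34 called higher than in each other population (6.25%), *Gas6*, *Mme*, *Sgms2* and *Tnfrsf11b*, and 2 called lower (3.36%), *Entpd1* and *Sox9*.

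Within the axis of FGF23, 5 of 8 genes reached 1 FPKM. *Fam20c*, the kinase that phosphorylates secreted matrix proteins and FGF23, had 23.1 FPKM in P1, 19.3 and 12.6 in P2 and P3, 11.3 and 4.61 in P4 and P5, and 6.08 in P6. *Fgfr1*, a receptor of FGF23, had 69.7 FPKM in P1, 52.7 and 39.5 in P2 and P3, 35.5 and 16.9 in P4 and P5, and 24.6 in P6. Both stepped down with ALDH activity within CD105+ and within CD105- cells. *Kl*, which encodes the klotho co-receptor, had at most 0.161 FPKM, and *Galnt3*, which protects FGF23 from cleavage by glycosylation, at most 0.0140. *Furin*, a protease that can cleave FGF23, ranged only from 16.0 to 29.4 FPKM.

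Of 12 genes of phosphate and pyrophosphate handling, 9 reached 1 FPKM, and in P3 over P5 the list had a median log2 ratio of 1.01 against -0.09 for all genes. In this comparison 5 of the 9 genes were called higher, against 7.33% of all genes, namely *Ank*, *Alpl*, *Nt5e*, *Entpd1* and *Enpp3*. In P2 over P4 the median was 0.52 against -0.08, with 3 of 9 called higher, against 4.9% of all genes. For ALDH activity, P4 over P5 had 3 of 9 called higher, *Alpl*, *Entpd1* and *Enpp3*, against 3.93% of all genes. The median there was 0.32 against -0.04. None of the 9 was called in P1 over P2, where the median was -0.02 against -0.05. None was called in P2 over P3 either, where it was 0.32 against -0.03. *Nt5e*, the ectonucleotidase CD73 that releases phosphate from AMP, had 8.93 FPKM in P1, 9.83 and 7.03 in P2 and P3, 4.68 and 2.34 in P4 and P5, and 2.70 in P6. *Enpp3*, a relative of *Enpp1*, was far more abundant than *Enpp1* on the FPKM scale, with 21.7 FPKM in P1, 22.0 and 15.3 in P2 and P3, 10.98 and 4.795 in P4 and P5, and 7.56 in P6. The phosphate exporter *Xpr1* went the other way, from 4.76 FPKM in P1 to 11.2 in P5. The phosphate importer *Slc20a2* differed little, from 5.98 to 7.03 FPKM.

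Of 8 genes of Gla proteins and the vitamin K cycle, *Mgp*, *Gas6*, *Ggcx* and *Vkorc1* reached 1 FPKM. *Gas6*, another protein with Gla residues, ordered its extremes like *Mgp*, with 106 FPKM in P1, 274 and 216 in P2 and P3, 244 and 265 in P4 and P5, and 677 in P6. The enzymes of carboxylation were nearly level. *Ggcx*, the carboxylase that makes Gla residues, had 22.0 to 26.0 FPKM, and *Vkorc1*, which recycles vitamin K, had 104 to 138 FPKM. Osteocalcin (*Bglap*) had at most 0.177 FPKM.

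All 9 genes of sphingomyelin turnover reached 1 FPKM, and 8 were tested in P1 over P2. There, *Smpd3*, which the choice of genes was built on, was called higher, against 0.957% of all genes, and none was called lower, against 4.23%. The lysosomal sphingomyelinase *Smpd1* had 21.9 to 27.9 FPKM, and *Smpd2* had 12.7 to 15.4. *Sgms2*, which synthesizes sphingomyelin at the plasma membrane, was highest in P6, with 12.96 FPKM against 2.35 to 6.21 in the other populations. Among M13 peptidases, *Ece1*, the endothelin-converting enzyme, had 54.5 FPKM in P1, 47.5 and 36.6 in P2 and P3, 34.5 and 20.4 in P4 and P5, and 12.99 in P6, whereas *Mme* (neprilysin) had 2.79 FPKM in P6 and at most 0.377 elsewhere.

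Of 5 acidic bone matrix proteins of the SIBLING family, none reached 1 FPKM. *Spp1* (osteopontin) had 0.384 FPKM in P1 and at most 0.182 elsewhere, and *Ibsp*, *Dspp* and *Mepe* were listed at 0 in all libraries. *Ahsg* (fetuin-A), a serum inhibitor of calcification made mainly in liver, had 5.20 FPKM in P1, 3.12 and 2.48 in P2 and P3, 1.30 and 0.518 in P4 and P5, and 0.0891 in P6. *Tnfrsf11b* (osteoprotegerin) had 27.2 FPKM in P6, 5.97 in P1, 6.10 in P2 and 4.77 in P4, against 1.38 in P3 and 0.952 in P5. Among transcription factors, *Sox9* had 3.77 FPKM in P1 and 0.247 in P6, *Dlx3* had 1.495 FPKM in P2 and was listed at 0 in P6, and *Cbfb*, the partner of RUNX proteins, had 20.9 to 24.4 FPKM.

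**Figure D3:**
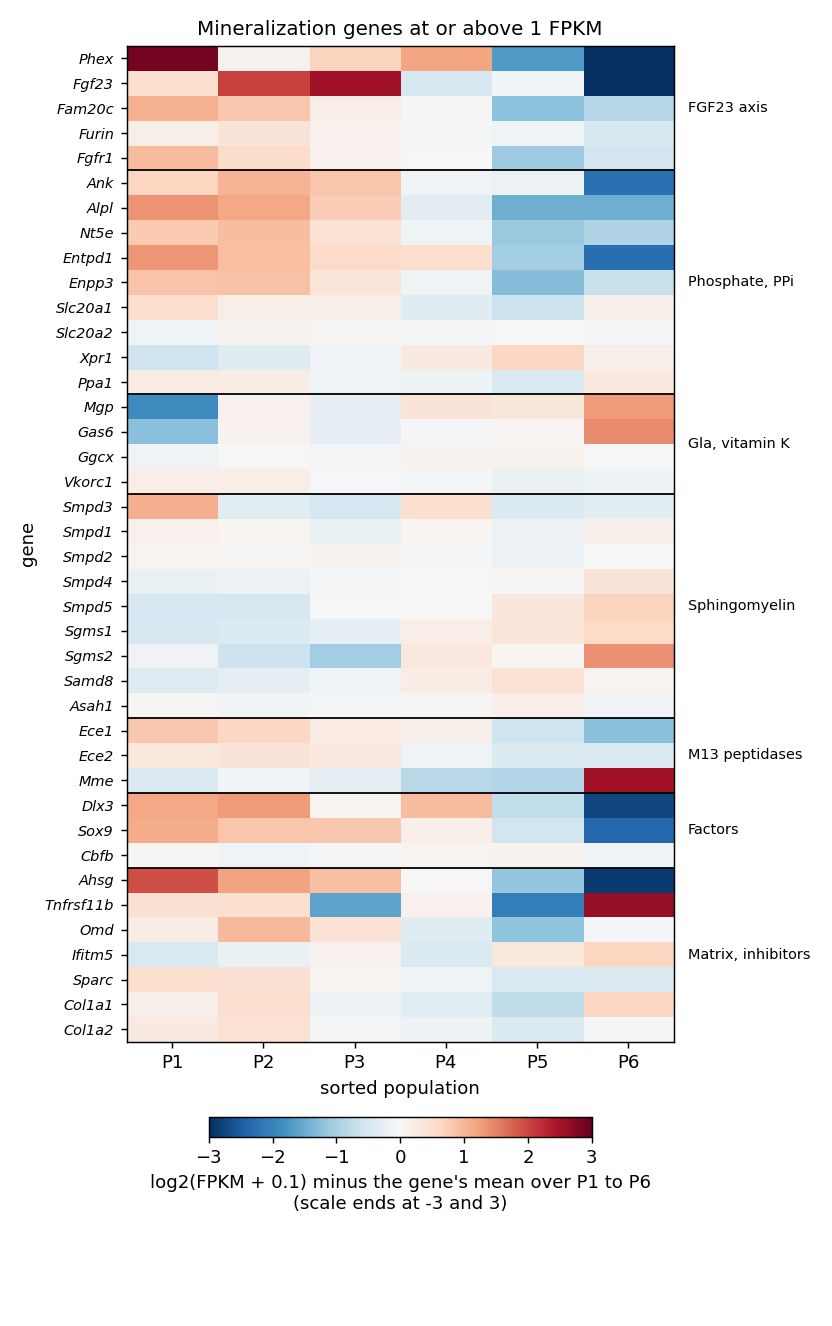
Log2(FPKM + 0.1) of the 40 mineralization genes with at least 1 FPKM in a population (rows, grouped by role), minus each gene's mean over P1 to P6 (columns, 1 library each); red is above and blue below the mean, and the scale ends at -3 and 3. *Phex*, *Alpl*, *Entpd1* and *Ahsg* are red in P1 and blue in P6, *Mgp* and *Gas6* the reverse, and *Fgf23* is reddest in P2 and P3.

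The genes with the pattern most like *Phex* were *Col5a3*, *Sc5d*, *Traf7*, *Ptx3* and *Nova1*, with Pearson correlations of log2(FPKM + 0.1) of 0.984 to 0.987. The most like *Smpd3* were *Lrrc8d*, *Lrsam1*, *Tbcb*, *Cpq* and *Ehd1*, with correlations of 0.967 to 0.996. These were the 5 highest for each gene among 9789 genes with at least 5 FPKM in a population. Such correlations ignore the size of the differences, and all 6 libraries share tissue and preparation. *Ptx3* had 151 FPKM in P1 and 2.15 in P6, whereas *Traf7* only ranged from 22.1 to 28.3 FPKM. Without P6, none of the 5 genes named for *Phex* and 2 of those named for *Smpd3* were still among the top 5.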

How the data were processed

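RNA-seq of 6 sorted omental stromal populations, with 1 library each, was analyzed. NEBNext Ultra RNA libraries were read from 1 end over 76 bp. The authors deposited FPKM values per gene symbol, and their processing notes name TopHat2 2.0.7, Cufflinks 2.1.1 and mm10. Which annotation and filters they used, and whether mice were pooled, is not given in the sources used here. FPKM values were used as deposited, without scaling between libraries, and 495 rows that repeated a symbol were summed.

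Library depth was inferred from the step that 1 read makes in low FPKM values of genes with a single GENCODE M21 transcript, with an assumed fragment of 200 nt. It was 53.15 to 61.6 M reads in P1 to P5 and 37.1 M in P6. Of low values, 52.8% to 60.5% lay within 0.05 of a whole read, against 10% of random values. Depth was fitted to low values of these same genes, so this share does not test it. Reads are thus estimates, and no count test was run. Reads of a gene used its longest protein-coding transcript. A listed value of 0 can be a failed estimate, since *Col3a1* was listed at 0 in P2 and had at least 2100 FPKM elsewhere.

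The genes and lists were chosen with earlier results of these data known. Named genes were the 9 genes, partner genes, markers and, for likeness, the 5 highest correlations, with *Prmt7* and *Col3a1* added after values were seen. Calls, intervals and depth were tried on simulated data for P1 over P2 with 20850 genes. There, 200 of 200 genes raised 4 times were called, which was nearly assured with a limit of 2-fold. Reads were drawn at the estimated depths with Poisson noise only, without spread between mice or libraries. The simulation thus checks the calculation and not the calls in real libraries. Scripts ran in Python 3.11.15 with scipy 1.17.1, pandas 2.3.3, matplotlib 3.10.9 and numpy 2.4.6. Alternatives were 4 scalings, the handling of repeated symbols, the pseudocount, the minimum FPKM, the fold limit and, added after seeing the data, leaving out P2, P4 or P6 and other settings of the search for genes like *Fgf23*.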

Additional observations from a re-analysis of the deposited data

Results flagged for a closer look

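*Phex* differed in direction between arms of the design. The ratio of intermediate to low ALDH activity was 0.672 in CD105+ cells (P2 over P3) and 8.40 in CD105- cells (P4 over P5). The ratio of CD105+ to CD105- cells was 0.461 at intermediate ALDH activity (P2 over P4) and 5.76 at low activity (P3 over P5). Each ratio compares 1 library with 1 library, so the difference was not tested. The same 4 libraries enter both pairs of ratios.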

How the results depend on the processing

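The 3 genes highest in P1 stayed *Phex*, *Smpd3* and *Alpl* under all 4 scalings. Leaving out P2, P4 or P6 could only raise their number, not lower it, and it stayed 3. The ratio of P1 to P4 for *Phex* was 3.55 with the median of ratios, 4.55 with division by *Gapdh* and 3.56 with quantile normalization, against 3.22 as deposited. For *Smpd3* it was 1.68, 2.15 and 1.47, respectively, against 1.52. *Gapdh* itself ran from 214 FPKM in P1 to 326 in P5. The number of genes called higher in P4 over P5 was 1 instead of 2, without *Alpl*, with a pseudocount of 1 or a minimum of 5 FPKM. The number called lower in P2 over P4 was 0 instead of 1 with *Gapdh*, with quantile normalization and with a pseudocount of 1, and 2 at 1.5-fold, where *Smpd3* joined *Phex*. The number called higher in P3 over P5 was 2 instead of 4 at a minimum of 5 FPKM. At 1.5-fold, *Mgp* became the 1 gene called lower in P3 over P5 and the 1 gene called higher in P6 than in P1 to P5, against 0. At a minimum of 5 FPKM, 1 gene instead of 2 was called lower in P6. These changes of number at other limits follow from the limits themselves; the cause of those with scaling was not tested.

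Of the 5 genes most like *Phex*, 2 were still among the top 5 with a pseudocount of 1, 3 with a minimum of 1 FPKM, 1 among 15 tied genes with Spearman correlation and 0 without P6. For *Smpd3* these numbers were 1 among 10 tied genes with Spearman correlation and 2 without P6. For *Fgf23*, with alternatives chosen after seeing the data, they were 0 with a pseudocount of 1, 4 with a minimum of 1 FPKM, 3 among 42 tied genes with Spearman correlation and 0 without P6. The other 114 alternatives for the main results moved a number by at most 1.5 times, and no called ratio changed direction. In 7 of them the genes called changed: *Ank* was lost from P3 over P5 with a pseudocount of 1, *Smpd3* was gained in P4 over P5 with *Gapdh* and at 1.5-fold, *Enpp1* in P2 over P4 with *Gapdh* and with no minimum and in P3 over P5 with no minimum, and *Phex* among genes lower in P6 with no minimum. Of 180 single-gene ratios under the 4 scalings, 137 stayed within the counting interval and 43 did not. No paired analysis was possible because there was a single library for every population. Precision was lowest for *Dmp1*, with at most 17 estimated reads, and for *Fgf23* in P6, with about 2.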

Other observations

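*Fgf23* was chosen for a search of similar genes after its values were seen. The 5 genes with the highest Pearson correlation of log2(FPKM + 0.1) over the 6 libraries were *Sphk1*, *Notch1*, *Ccl19*, *Wdr12* and *Flrt3*, with correlations of 0.994 to 0.999 among 9789 genes. The value of *Fgf23* in P6 rests on about 2 estimated reads, and without P6, or with a pseudocount of 1, 0 of these 5 genes were still among the top 5. *Ccl19*, a chemokine that attracts lymphocytes and dendritic cells through CCR7, had 90.8 FPKM in P1, 168 and 204 in P2 and P3, 39.8 and 46.0 in P4 and P5, and 3.60 in P6. *Sphk1*, which makes sphingosine 1-phosphate, had 18.8 FPKM in P1, 37.6 and 43.3 in P2 and P3, 11.9 and 12.9 in P4 and P5, and 1.57 in P6. *Notch1*, a receptor of cell fate signals, had 3.80 FPKM in P1, 7.71 and 8.62 in P2 and P3, 3.01 and 3.95 in P4 and P5, and 0.704 in P6. *Ccl19* and *Sphk1* had the populations in the order of *Fgf23*, which was P3, P2, P1, P5, P4 and P6, and in *Notch1* P5 stood above P1.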
